A study of Homo sapiens with 6 samples.

Results

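RPL27A, RPL12, RPL14, RPL21, RPL7 and RPS10 encode proteins of the cytosolic ribosome, and each has intronless copies elsewhere in the genome. They were chosen as ribosomal protein genes with such copies and taken by symbol from a deposited table of differential expression. They are 6 of its 6018 genes. The labels group 6 RNA sequencing libraries of C4-2B, an established LNCaP-derived human prostate cancer line that grows at castrate androgen levels. There are 3 libraries of parental cells, which were carried in 1% DMSO and are given as passage 0. The other 3 are of a subline taken stepwise through 1 to 20 µM abiraterone over at least 6 months and then held in 5 µM, given as passage 15 to 18. Abiraterone inhibits CYP17A1, an enzyme of androgen synthesis. Both lines grew with 10% serum, each is 1 line, and passage cannot be told apart from line. Whether both lines also received the 10 µM abiraterone named in the RNA protocol is not clear from its wording. Nothing in the labels says that the libraries of a line came from separate cultures, so the p-values in the table reflect spread among libraries that may be technical repeats.

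The table is a DESeq2 result made by the authors, condition C set against condition V. It has no value per library, so depth per library is unknown. The sources used here do not state whether the libraries of C and V were aligned and counted in the same way, and every difference between C and V below carries that limit. Its header calls C control and V vehicle and does not tie either to a cell line, so each direction below names C or V and no line. A log2 fold change above 0 means higher in C, and a value after ± is its standard error. Genes with an adjusted p below 0.05 in the table are termed called. The list is a selection: its largest p is 0.05 and its smallest absolute log2 fold change is 1.20, so a gene outside it may have missed either limit. A derived level for each side was solved from the mean of normalised counts and the fold change, assuming equally many libraries in C and in V. They carry no error of their own and are not comparable between genes, since length was not divided out. Of 11 luminal prostate markers 3 were listed, KLK3 and KLK2 higher in C and KRT8 higher in V. The highest derived level among the listed markers was 15170 for the luminal ones (KLK3), 45.5 for the basal, 35.7 for the leukocyte and 294 for the fibroblast ones. All 5 listed markers of these other cell types were higher in V: KRT5 and KRT15 of 4 basal markers, PTPRC and CD14 of 4 leukocyte markers, and COL1A1 of 5 fibroblast markers. Their derived levels in C were under 1, except 72.4 for COL1A1, and their part in the results below was not tested.

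As background, a ribosome joins a large subunit, which forms peptide bonds, to a small subunit, which reads the messenger RNA. Cells keep the subunit proteins close to equimolar, and their messages are short and abundant. Such messages have often been copied back into the genome by reverse transcription, which leaves processed pseudogenes: copies of the spliced message, without introns and usually without a promoter. A short read from such a message may match its gene and 1 or more copies equally well. Where the read is counted then depends on the aligner and the counter. The submitters' processing notes name Cufflinks 2.2.1, and the sources used here name no other program for either step.

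The sequences show how near some copies are to their parents. Each stretch below is 50 bases long, the read length given in the labels. It is the part of the coding sequence in which the named copies hold the most substitutions, read 5′ to 3′ from GENCODE release 29 transcripts (GRCh38), and capitals mark bases at which a copy differs from its parent. Substitutions over these windows are counted in sense orientation.

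For RPS10 the window covers coding bases 279 to 328, and the copies lie on chromosomes 20 and 2.
RPS10: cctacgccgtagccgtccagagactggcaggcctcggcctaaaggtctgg
RPS10P2: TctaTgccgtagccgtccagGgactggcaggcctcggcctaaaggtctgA
RPS10P9: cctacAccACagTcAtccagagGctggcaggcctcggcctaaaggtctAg

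For RPL21 the window covers coding bases 275 to 324. RPL21P1 and RPL21P4 were higher in C, and RPL21P120 and RPL21P119 higher in V like their parent.
RPL21: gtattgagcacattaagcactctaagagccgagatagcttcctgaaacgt
RPL21P1: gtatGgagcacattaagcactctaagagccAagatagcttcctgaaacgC
RPL21P4: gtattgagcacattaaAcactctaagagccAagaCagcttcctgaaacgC
RPL21P120: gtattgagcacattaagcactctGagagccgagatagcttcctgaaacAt
RPL21P119: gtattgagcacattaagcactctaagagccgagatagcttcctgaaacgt

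For RPL12 the window covers coding bases 413 to 462. RPL12P19 and RPL12P47 were higher in C, and RPL12P6 and RPL12P35 higher in V.
RPL12: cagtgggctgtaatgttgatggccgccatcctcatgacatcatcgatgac
RPL12P19: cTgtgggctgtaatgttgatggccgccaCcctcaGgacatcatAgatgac
RPL12P47: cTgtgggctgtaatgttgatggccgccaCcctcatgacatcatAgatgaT
RPL12P6: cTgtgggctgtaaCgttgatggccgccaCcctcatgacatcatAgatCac
RPL12P35: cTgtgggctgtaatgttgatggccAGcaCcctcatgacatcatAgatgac

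RPL14 and RPL27A are shown over coding bases 33 to 82 and 87 to 136, where RPL14P3 and RPL27AP5 differ from their parents at 11 positions each.
RPL14: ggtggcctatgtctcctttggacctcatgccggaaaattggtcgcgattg
RPL14P3: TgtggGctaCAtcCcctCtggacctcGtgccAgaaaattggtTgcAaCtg
RPL14P5: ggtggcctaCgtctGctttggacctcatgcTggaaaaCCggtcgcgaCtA
RPL27A: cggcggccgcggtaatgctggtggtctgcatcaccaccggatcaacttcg
RPL27AP5: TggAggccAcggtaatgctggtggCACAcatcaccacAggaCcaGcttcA

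In these windows RPL21P119 differed from RPL21 at 0 positions and RPL21P120 at 2, while RPL21P1 and RPL21P4 differed at 3 and 4. RPL14P5 differed from RPL14 at 7 positions. RPS10P2 differed from RPS10 at 4 positions and RPS10P9 at 7. The RPL12 copies differed at 4 positions (RPL12P19, RPL12P47) or 5 (RPL12P6, RPL12P35).

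The 6 genes divided evenly, with RPL27A, RPL12 and RPL14 higher in C and RPL21, RPL7 and RPS10 higher in V. They were chosen from this same comparison, so their values are a description and no test of them is offered. All 6 were called, where 89.4% of all listed genes were, and nothing is read from that share.

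Among the large subunit proteins higher in C, RPL27A had the greatest difference. In the authors' deposited table it is listed at a mean of 4046 normalised counts and a log2 fold change of 1.94 ± 0.07. The derived levels of RPL27A were 6423 in C and 1670 in V, a 3.85-fold difference (95% interval 3.50 to 4.23). The gene lies at chr11:8682411-8714759 on the plus strand. RPL12 sits at the base of the stalk that recruits translation factors to the large subunit. Its mean was 1226 and its log2 fold change 1.68 ± 0.07 in the authors' deposited table, with derived levels of 1867 in C and 584 in V. It lies at chr9:127447674-127451405 on the minus strand. RPL14, at chr3:40457292-40468587 on the plus strand, had a mean of 2588 and a log2 fold change of 1.21 ± 0.06 in the authors' deposited table. Its derived levels were 3611 in C and 1565 in V. RPL14 thus stands just inside the limit of the list, and values just outside it are not given.

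Of those higher in V, RPL21 and RPL7 also belong to the large subunit. RPL21, at chr13:27251309-27256691 on the plus strand, had a mean of 1015 and a log2 fold change of -2.23 ± 0.11 in the authors' deposited table. Its derived levels were 357 in C and 1673 in V, a 4.69-fold difference (95% interval 4.02 to 5.48). RPL7, on the minus strand of chromosome 8, had a mean of 443 and a log2 fold change of -1.55 ± 0.12 in the authors' deposited table. The derived levels of RPL7 were 226 in C and 661 in V. RPS10 is the one small subunit protein of the 6; it lies near the messenger RNA entry side and is ubiquitinated when ribosomes collide. It had the lowest mean of the 6, 160, and the greatest difference, a log2 fold change of -2.67 ± 0.19 in the authors' deposited table. Its derived levels were 43.5 in C and 276 in V, a 6.35-fold difference (95% interval 4.93 to 8.17), and the gene lies at chr6:34417454-34426125 on the minus strand.

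The pseudogenes of these genes were mostly higher in C, whichever way the parent went. Annotation under current symbols holds 267 copies named for the 6 genes, 133 of them for RPL21. The table names 37, and 36 of these were called, where 91.7% of all listed processed pseudogenes were. Of the 37, 26 (70.3%) stood called on the C side and 10 (27.0%) on the V side. Among all 1563 listed processed pseudogenes 65.4% were called toward C and 26.4% toward V, so the division of the copies lay near that of processed pseudogenes in general. It did not resemble that of listed protein-coding genes, of which 31.6% were called toward C and 61% toward V. The median log2 fold change was 2.69 over the 37 copies, 2.15 over listed processed pseudogenes and 1.26 over all listed genes. The median listed mean was 19.9 normalised counts for the copies, 15.9 for listed processed pseudogenes and 20.8 for all listed genes. The median standard error was 0.72, 0.61 and 0.54 in the same order. For 8 copies the lower derived level was under 1 normalised count, where the size of the fold change depends on the estimator.

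**Figure D1:**
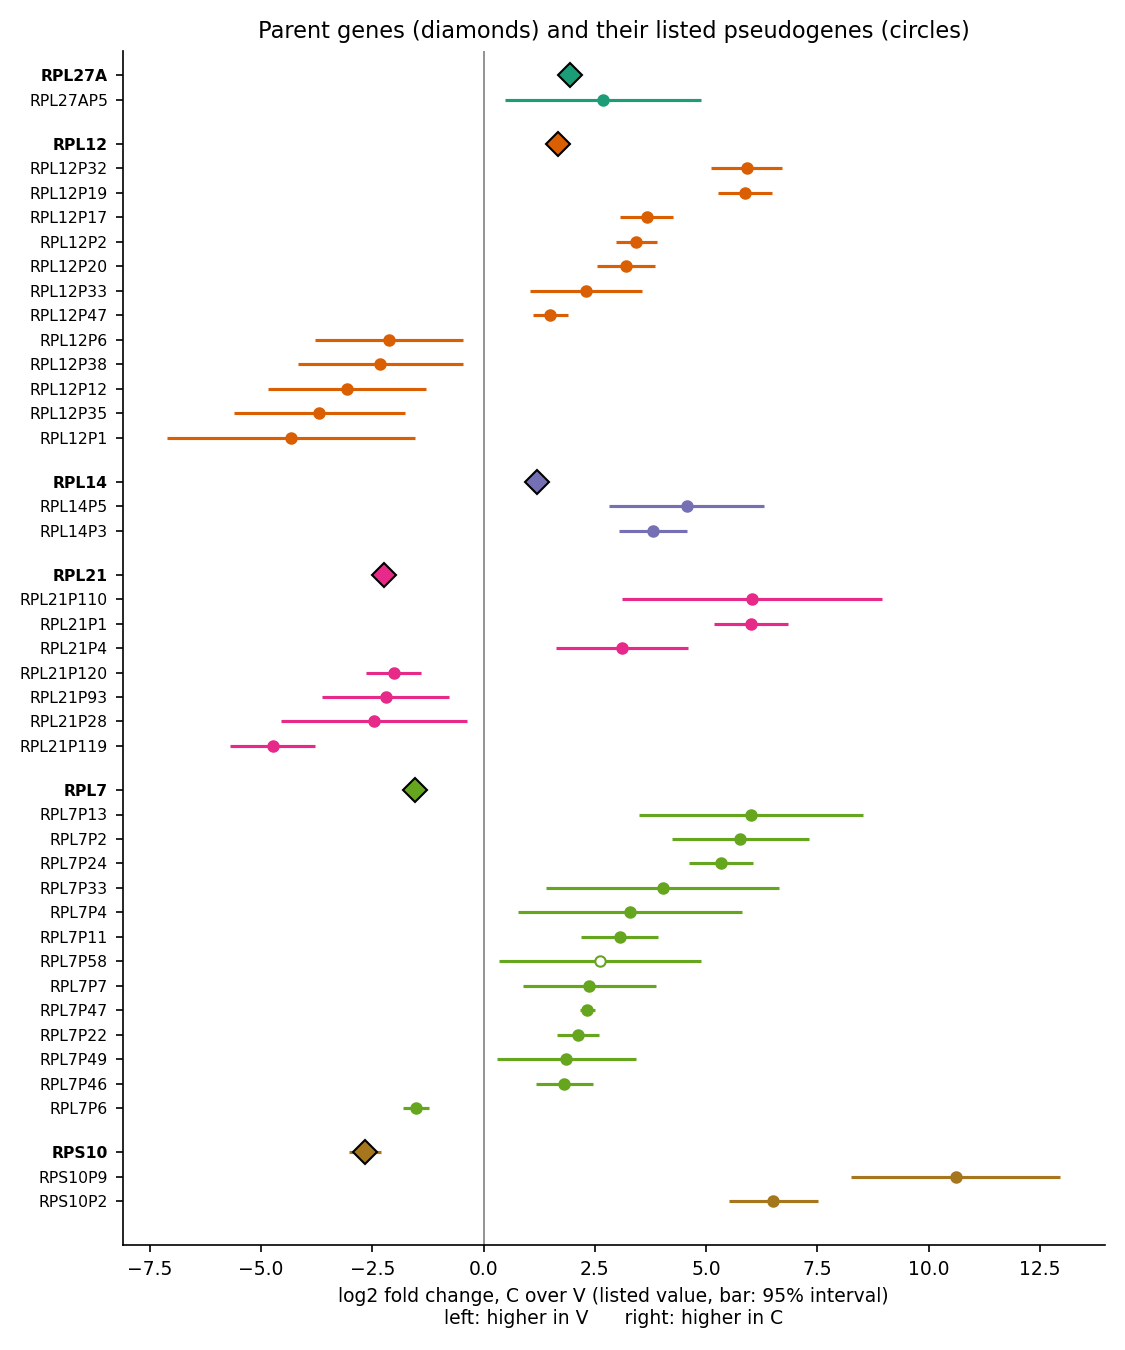
Listed log2 fold change of C over V (horizontal axis) for the 6 parent genes (diamonds) and their 37 listed pseudogenes (circles, open where the adjusted p is 0.05 or more), with bars for the 95% interval. RPL21, RPL7 and RPS10 stand left of 0 while 16 of their 21 called copies stand right of it.

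Of the called copies of RPL21, RPL7 and RPS10, the genes higher in V, 16 of 21 (76.2%) were higher in C, opposite to their parents. Of all called processed pseudogenes 1022 of 1434 (71.3%) were higher in C, so this share lay near the background. RPS10 was higher in V and both of its listed copies were higher in C. RPS10P2, at chr20:14757563-14758056, had a mean of 91.5 and a log2 fold change of 6.51 ± 0.51 in the authors' deposited table. RPS10P9, at chr2:64665607-64666064, had a mean of 90.9 and a log2 fold change of 10.60 ± 1.20 in the authors' deposited table. The derived level of RPS10P2 was 181 in C and 1.98 in V, and that of RPS10P9 182 in C and 0.117 in V. The difference of copy minus parent in log2 fold change was 9.18 ± 0.54 for RPS10P2. This error treats the 2 genes as independent, which shared reads and libraries make them not.

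RPL7 was higher in V, while 11 of its 12 called copies were higher in C and 1 was higher in V. RPL7P47, at chr16:17932720-17933275, had the highest mean of all 37 copies, 557, with a log2 fold change of 2.33 ± 0.09 in the authors' deposited table. Its derived level was 929 in C and 185 in V. RPL7P24 had a log2 fold change of 5.34 ± 0.37 in the authors' deposited table and derived levels of 262 in C and 6.47 in V. The exception was RPL7P6, at chr12:19089151-19089888, with -1.52 ± 0.15 in the authors' deposited table and derived levels of 102 in C and 291 in V. Its difference from RPL7 was 0.03 ± 0.19 on the log2 scale. RPL7P58 was listed at 2.62 ± 1.16 in the authors' deposited table and not called. RPL7P22 and RPL7P46, both higher in C, bear the name of RPL7 but were nearest in sequence to RPL7L1, a related gene, at 96.4% and 97.0% identity.

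The copies of RPL21 divided, 4 higher in V like the parent and 3 higher in C. RPL21P119, at chr16:9156402-9156881, had a log2 fold change of -4.73 ± 0.49 in the authors' deposited table and derived levels of 3.35 in C and 89.1 in V. RPL21P120 had -2.02 ± 0.31 in the authors' deposited table and derived levels of 18.4 in C and 74.5 in V. On the other side RPL21P1, at chr12:122364782-122365632, had 6.00 ± 0.42 in the authors' deposited table and derived levels of 175 in C and 2.73 in V. RPL21P4, in BRCA1 on the opposite strand, had 3.11 ± 0.76 in the authors' deposited table and derived levels of 13.7 in C and 1.59 in V. So within 1 family of copies the log2 fold changes ran from -4.73 to 6.04.

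For the genes higher in C the called copies of RPL14 and RPL27A stood on the parent's side, and those of RPL12 divided 7 to 5. RPL14P3 had 3.81 ± 0.39 and RPL14P5 4.56 ± 0.89 in the authors' deposited table, both greater than the 1.21 of RPL14. RPL27AP5 had a mean of only 7.21 and 2.69 ± 1.13 in the authors' deposited table. RPL12P19, at chr2:44270621-44271106, had 5.87 ± 0.31 in the authors' deposited table and derived levels of 344 in C and 5.88 in V. RPL12P47 had 1.50 ± 0.20 in the authors' deposited table, which differed from RPL12 by -0.17 ± 0.21. The 5 RPL12 copies higher in V were all low, with means from 3.31 to 9.13, whereas the 7 higher in C had a median mean of 90.6. Among them RPL12P6 had -2.12 ± 0.85 and RPL12P35 -3.69 ± 0.98 in the authors' deposited table. RPL12P38, also higher in V, was nearest to HMGN2, which encodes a nucleosome-binding protein. Its transcript is 2319 bases long, and 26.9% of it aligned with RPL12. That part covered 99.7% of the RPL12 transcript at 94.9% identity. Of the called copies of RPL27A, RPL12 and RPL14 together, 10 of 15 (66.7%) were higher in C, again near the 71.3% of called processed pseudogenes. Over all 6 genes 15 called copies stood on the side of their parent and 21 on the other, and with both shares near that background nothing is read from this count.

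The listed pseudogenes do not include every copy. A search of all listed pseudogenes for the protein-coding gene nearest in sequence added 17 copies with no such symbol in the table. They are 8 of RPL21, 7 of RPS10 and 1 each of RPL14 and RPL27A. Of these, 14 were called: 12 toward C and 2 toward V. The 2 higher in V were both nearest to RPS10: AC090114.1 at -1.29 ± 0.18 and AC008026.1 at -1.33 ± 0.54 in the authors' deposited table. Among the added copies 1 had a higher listed mean than any of the 37. It is RPL21P97, listed as AC011979.1, at chr11:9660438-9660920, and had a mean of 707 and a log2 fold change of 1.50 ± 0.11 in the authors' deposited table. RPL21P46 had 3.15 ± 0.23 and RPL21P14 3.14 ± 0.18 in the authors' deposited table, where their means are 303 and 227. Of the RPS10 copies, AL139100.1 at chr6:34744176-34744673 had 3.02 ± 0.16 in the authors' deposited table and derived levels of 395 in C and 48.7 in V.

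Summed with its copies, no parent that was higher in V kept the size of its own difference. RPS10 alone stood at 43.5 in C and 276 in V. With the 2 named copies the summed derived level was 406 in C and 278 in V, and with the 7 added copies 1463 in C and 712 in V. Copies made up 97.0% of that RPS10 sum in C and 61.2% in V. For RPL7 the sum with 13 copies was 1878 in C and 1201 in V, against 226 and 661 for the gene alone. For RPL21 the sum with 7 named copies was 577 in C and 1864 in V, still higher in V, whereas with the 8 added copies it was 2626 in C and 2356 in V. On the log2 scale the RPL21 value was thus -2.23 for the gene, -1.69 with named copies and 0.16 with all. The genes higher in C changed less: from 1.94 to 1.94 for RPL27A, from 1.68 to 1.99 for RPL12 and from 1.21 to 1.25 for RPL14 with all copies. These sums have no error, hold only copies that are in the list, and count reads rather than molecules. Among all listed processed pseudogenes 65.4% were called toward C and 26.4% toward V. Adding listed copies to a parent higher in V was thus likely to shrink its difference, and nothing is read from the shrinkage. The RPS10 sum with named copies depends on equal numbers of libraries: with 2 libraries in C for each in V its log2 ratio was -0.15 in place of 0.55.

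**Figure D2:**
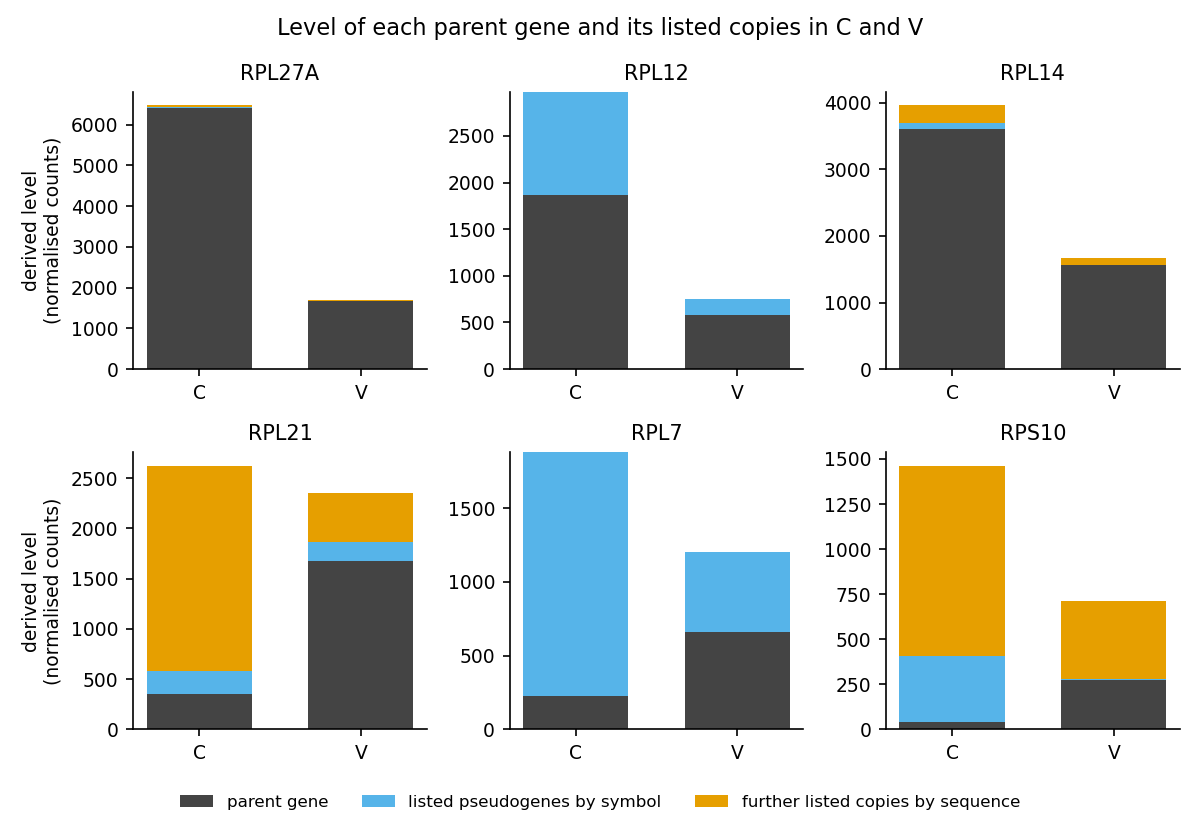
Derived level in normalised counts (vertical axis, from 0, scaled per panel) of each parent gene, its pseudogenes by symbol and its further copies by sequence, stacked for C and V. Copies make up 88.0% of the RPL7 bar in C and 45.0% in V, and 0.88% and 1.23% of the RPL27A bars.

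Among listed copies, direction went with how much sequence a copy shares with its parent. The measure was the percentage of the 50-base windows of a copy that stand base for base in a transcript of the parent. Its median was 1.54% for the 26 named copies higher in C and 21.2% for the 10 higher in V. The ranges overlapped, from 0 to 17.1% in the former and from 5.11% to 83.1% in the latter. These groups also differed in level, with a median listed mean of 41.4 for copies higher in C and 8.01 for those higher in V. The part of level in this was not tested. The 5.11% is that of RPL12P38, of whose long transcript 26.9% aligned with RPL12. RPL7P22 and RPL7P46, nearest to RPL7L1, were measured against RPL7 and stood at 0%. A further 222 annotated copies, sharing from 0 to 100% of their windows, are not listed and have no direction here. RPL21P119 shared 83.1% of its windows with RPL21, and its aligned sequence was 99.4% identical. RPS10P9 shared 1.47% of its windows with RPS10 at 86.6% identity, and RPS10P2 3.37% at 94.0%. RPL7P6, the called RPL7 copy higher in V, shared 14.7%, and RPL7P47, higher in C, shared 16.6%, so neighbours in sharing stood on opposite sides there. Across the 37 copies the log2 fold change had a Pearson r of -0.59 and a Spearman rho of -0.36 with this measure. Across 54 copies with the added ones these were -0.55 and -0.36. With percent identity as the measure, r and rho were -0.31 and -0.53 over the 37 copies and -0.28 and -0.38 over the 54. The added copies widened the overlap: RPL21P97 shared 38.7% and RPL21P46 31.6% and both were higher in C. These points share libraries and, within a family, a parent, so the correlation is a description.

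**Figure D3:**
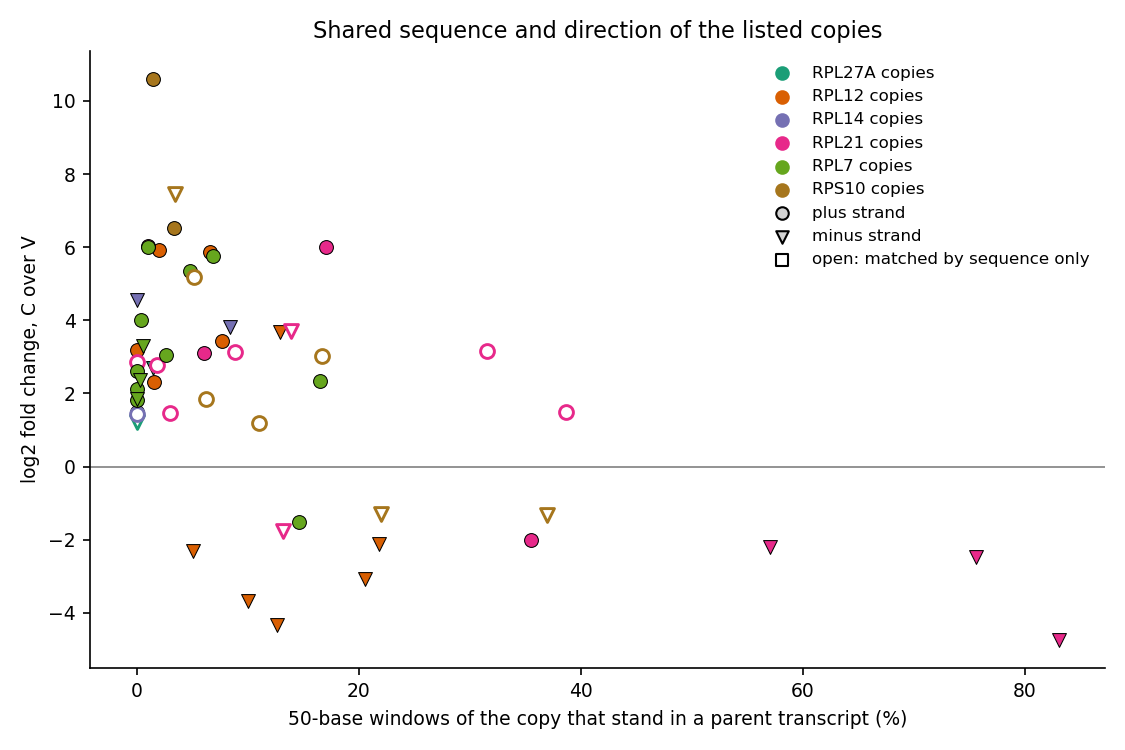
Percentage of a copy's 50-base windows that stand in a parent transcript (horizontal axis) against its listed log2 fold change of C over V (vertical axis). Filled points are the 37 named copies, open points the 17 added by sequence. Circles lie on the plus strand and triangles on the minus strand. The copies drawn at 57.0% or more are RPL21P119, RPL21P28 and RPL21P93, all of RPL21 and on the minus strand, and they lie below 0. Unlisted copies have no value and are not drawn.

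Genomic strand also moved with direction, and its part in the result was not tested. Of 21 called named copies on the plus strand, 19 were higher in C (90.5%). Of 15 on the minus strand, 7 were (46.7%). All 6 called RPL12 copies on the plus strand were higher in C, and of the 6 on the minus strand 5 were higher in V. Among the added copies 9 of 9 on the plus strand and 3 of 5 on the minus strand were higher in C. The same held beyond these genes. Of processed pseudogenes outside the ribosome, 82.5% of 650 called on the plus strand and 59.6% of 557 on the minus strand were higher in C. In protein-coding genes the shares were 35.9% of 1361 and 32.4% of 1375. Within each strand the copies higher in V had the higher median share of windows. With named and added copies together, it was 21.9% on the minus strand for the 10 higher in V and 1.04% for the 10 higher in C. On the plus strand it was 25.1% for 2 and 3.0% for 28. The plus strand value for V rests on only those 2 copies and level was not held equal, so nothing is read from this split. Of the parents on the plus strand, RPL27A and RPL14 were higher in C and RPL21 higher in V. Of those on the minus strand, RPL7 and RPS10 were higher in V and RPL12 higher in C.

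**Figure D4:**
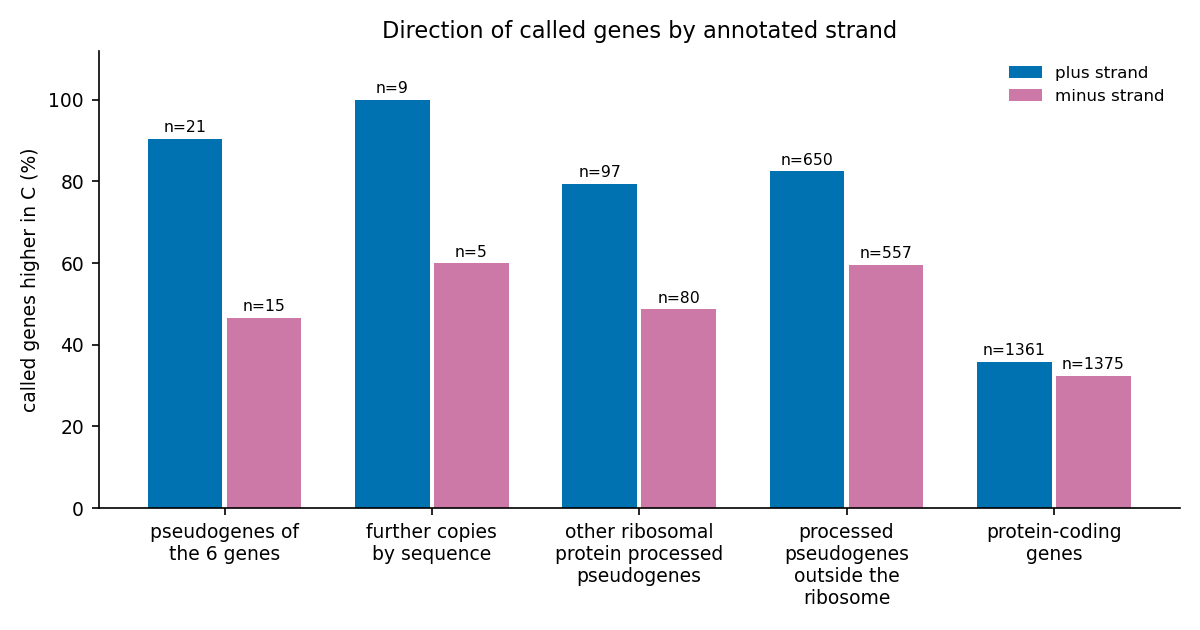
Percentage of called genes that were higher in C (vertical axis), by annotated strand, for the pseudogenes of the 6 genes, the added copies, other ribosomal protein processed pseudogenes, processed pseudogenes outside the ribosome and protein-coding genes, with the number of called genes over each bar. In each pseudogene group the plus strand bar is the higher, 79.4% against 48.8% for other ribosomal protein pseudogenes.

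Seen from the parents, the 3 genes higher in V had next to no 50-base stretch of coding sequence that is theirs alone. Of the 50-base windows in the RPL21 coding sequence, 100% also stood in an annotated pseudogene. This was likewise 100% for RPS10 and 99.7% for RPL7. For RPL12 it was 66.4%, for RPL14 61.2% and for RPL27A 60.8%. RPL21 windows stood in 61 pseudogenes, those of RPL7 in 29, RPS10 in 24, RPL12 in 18, and RPL14 and RPL27A in 2 each. A single unlisted copy, RPL21P16, held all 431 coding windows of RPL21. For RPL7 the copy with the most was RPL7P9, with 86.8%. Only coding windows were counted, and reads may also fall in untranslated parts of a message. RPL21P16 aligned with 59.3% of the RPL21 transcript and RPL7P9 with 67.8% of the RPL7 transcript. RPS10 windows also stood in the read-through gene RPS10-NUDT3, 91.3% of them, and in AL590867.2 stood 60.8% of those of RPL27A; none of these genes is listed. Over the 69 ribosomal protein genes that are not listed the median was 41.6%, from 0 to 100%. RPL39, RPS26 and RPS28 stood at 100% without being listed. The genes studied here were chosen as ribosomal protein genes with pseudogene copies, and that choice in part fixes a high share. Nothing is therefore read from where the chosen genes stand against the unlisted ones. The contrast between the chosen genes higher in V and those higher in C is a description only.

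**Figure D5:**
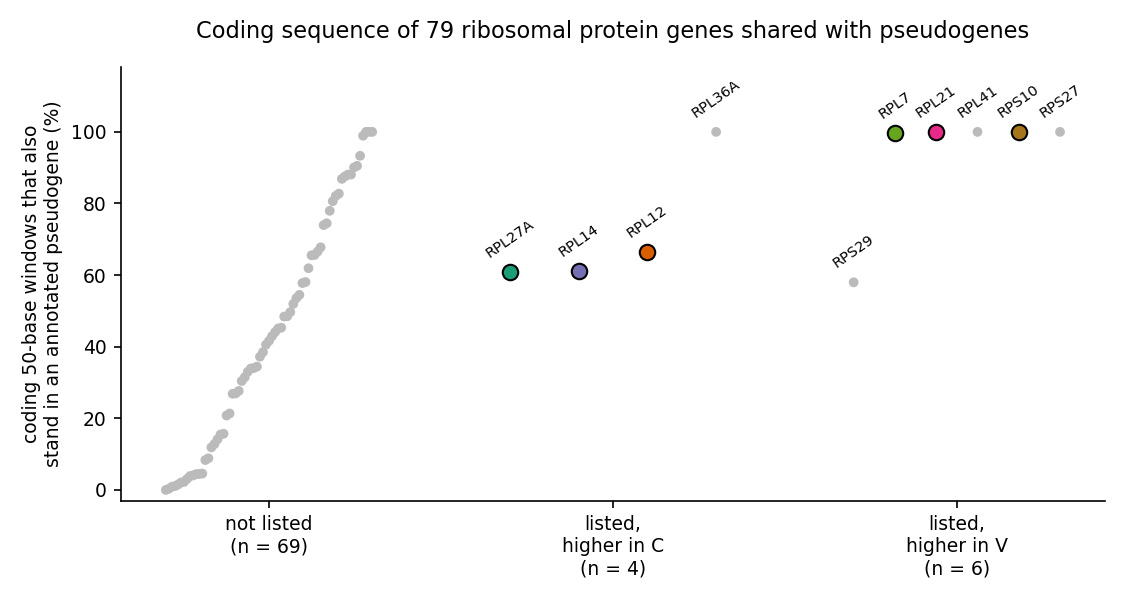
Percentage of coding 50-base windows that also stand in an annotated pseudogene (vertical axis) for 79 cytosolic ribosomal protein genes, by whether they are listed and in which direction. Large coloured points are the 6 genes: RPL27A, RPL14 and RPL12 lie between 60.8% and 66.4%, and RPL7, RPL21 and RPS10 between 99.7% and 100%. These 6 were chosen as genes with pseudogene copies, so their height against the unlisted genes is partly fixed by that choice.

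Other ribosomal protein genes were also listed. Of 79 cytosolic ribosomal protein genes, 10 were listed and called, 4 in the C direction and 6 in the V direction, where 46% and 43.4% of all listed genes were called. The 4 beyond the 6 genes are RPL36A, RPL41, RPS27 and RPS29. RPL36A had 1.91 ± 0.16 in the authors' deposited table, with derived levels of 259 in C and 69.2 in V. RPL41, the shortest ribosomal protein, had -1.46 ± 0.13 in the authors' deposited table and derived levels of 2408 in C and 6619 in V. The small subunit proteins RPS27 and RPS29 had -1.47 ± 0.10 and -1.49 ± 0.12 in the authors' deposited table. All 3 listed small subunit genes were thus higher in V, and the 7 large subunit genes divided 4 to 3. Coding windows in a pseudogene made up 100% for RPL36A, RPL41 and RPS27 and 58.0% for RPS29. RPL36A, at 100%, was higher in C, and RPS29, at 58.0%, was higher in V. These coding sequences are short, with 119 windows for RPS29 and 26 for RPL41, and untranslated parts were not counted. None of 32 translation factors and none of 10 ribosomal protein paralogs was listed. Of 77 mitochondrial ribosomal proteins, MRPS25 (1.43 ± 0.09) and MRPL42 (1.32 ± 0.10) were listed in the authors' deposited table, both higher in C. Genes outside the list have no values, so no share of all tested genes can be set beside these counts, and nothing is read from them.

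Other genes at the same loci gave few values. Ribosomal protein introns house small nucleolar RNAs, which guide modification of other RNAs. Of the 5 annotated inside the 6 genes, SNORA65 in RPL12 was listed, at 2.37 ± 0.49 in the authors' deposited table and derived levels of 21.1 in C and 4.08 in V, the side of its host. RDH10, a retinol dehydrogenase gene that overlaps RPL7 on the opposite strand, had -5.93 ± 0.15 in the authors' deposited table and derived levels of 33.1 in C and 2010 in V. Counting by strand is not stated for these data, so reads of RDH10 and RPL7 in the overlap may not be told apart, and the part of RDH10 in the RPL7 value was not tested. Of the 37 named copies, 21 overlap another annotated gene, 9 of them one on the same strand. A listed gene lies there for 4, in each case on the opposite strand. In 2 of these pairs copy and host differed in direction: RPL21P28 and RPL12P1 were higher in V, whereas DTL (2.13 ± 0.11) and KIFC1 (2.08 ± 0.09) were higher in C, per the authors' deposited table. In the other 2 they had the same direction. RPL21P4 and BRCA1 (1.81 ± 0.08) were higher in C, and RPL21P93 and LINC01517 (-4.16 ± 1.65) higher in V, per the authors' deposited table.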

How the data were processed

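Values came from 1 table for 6 libraries, 3 per line. The mean of normalised counts is a signal that the authors computed with DESeq2, per the file headers. Its log2 fold change, the standard error and the Wald statistic (score columns) and the p-value are the authors', per the file headers. The submitters' processing notes name FastQC and Cufflinks 2.2.1. Beyond these, no aligner, counter or build is named in the sources used here. With no library values, no test was run here. The 4 adjusted p of 0 beside a p above 0 were read as not given. Gene types, positions and transcripts are those of GENCODE release 29 (GRCh38). It has 5935 of the 6018 identifiers and need not be the authors' annotation. Windows of 50 bases were compared exactly in sense. Identity came from local alignment (Biopython 1.88; match 2, mismatch -3, gap -5 and -2). The nearest gene came from BLAST+ 2.17.0 (e-value limit 1e-10). The arithmetic of window shares and levels was checked on simulated data with known answers. The simulated levels gave both sides equal weight, so the assumption of equally many libraries was not tested. Named copies were the 2 of highest mean per direction and parent and the one sharing most windows. Other copies, and all of those added by sequence, were named after their values were seen. The 6 genes, the lists and this rule were chosen with earlier results of these data known.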

Additional observations from a re-analysis of the deposited data

How the results depend on the processing

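Depth per library is unknown, no library could be left out, and levels rest on the table alone. No paired analysis was possible because the table has no column per library. The copies called higher in C were 26, and 16 with a mean of at least 10 and 5 with at least 100. Those higher in V were 10, and 3, 1 and, with a 95% interval beyond a log2 of 1, 6. Fewer genes remain under these limits by construction, and the matching shares over all processed pseudogenes are not given here. At a log2 fold change of 2 or more in size, the ribosomal protein genes called were 0 in C and 2 in V. With 2 libraries in C for 1 in V, the higher derived level was 5371 for RPL27A, 1590 for RPL12, 3191 for RPL14, 2135 for RPL21, 790 for RPL7 and 364 for RPS10. With 2 in V for 1 in C it was 7986 for RPL27A, 2261 for RPL12, 4160 for RPL14 and 1376 for RPL21. The log2 ratio of summed levels moved, by the weight given to each side, to 0.29 and 1.04 for RPL7, to -1.35 for RPL21, and to -0.15 and 1.35 for RPS10. Adding copies by sequence gave 0.16 for RPL21 and 1.04 for RPS10. The median share of windows was 8.27% with 36-base windows and 16.2% with 1 mismatch allowed, where the medians of copies higher in V and in C differed by 49.2 points rather than 19.7. Leaving out the 3 copies nearest to another gene, an alternative chosen after seeing the data, gave 24 and 9 called copies and a log2 ratio of 0.56 for RPL7.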
